A study of Mus musculus with 4 samples.

Results

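Extracellular ATP and adenosine are handled by a short chain of enzymes and receptors at the cell surface, and 7 genes of that chain were followed here across 4 subsets of CD8 T cells: Entpd1, Nt5e, Cd38, Ada, Adora2a, Adora2b and P2rx7. They were taken by name as all probes whose RefSeq accession belongs to one of these genes, with no threshold on their values, although the genes were picked with earlier results of these data known. This gave 11 probes, each printed as 1 spot per array, for 7 of 22911 named genes. Of these probes 10 were well above background on at least 1 array and 8 on all 4 arrays. The single Adora2b probe was not well above background on any array, so comparisons cover 6 of the 7 genes.

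Spleen and lymph node cells of C57BL/6 mice aged 1 to 3 months, which had received no treatment, were sorted by flow cytometry. All 4 groups came from PD-1-/- animals, which lack the coinhibitory receptor PD-1, and no cells with intact PD-1 were analysed here. P4 was CD44low CD62Llow, the subset named in the title of the study. P3 was CD44high CD62Llow (effector memory phenotype), P2 was CD44high CD62Lhigh (central memory phenotype) and P1 was CD44low CD62Lhigh (naive phenotype). Each subset was hybridised to 1 array, so the differences lack replicates and none could be tested. The number of animals pooled per subset and any gates beyond CD44 and CD62L were not stated in the sources used.

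ATP released by stressed or activated cells acts as a danger signal, and adenosine made from it dampens T cells. CD39 (Entpd1) removes phosphates from ATP and ADP to leave AMP, and CD73 (Nt5e) turns AMP into adenosine. CD38 consumes NAD and so feeds a side route to AMP, while adenosine deaminase (Ada) converts adenosine to inosine. The receptors encoded by Adora2a and Adora2b raise cyclic AMP on binding adenosine. P2X7 (P2rx7) is an ATP-gated ion channel whose opening makes mouse T cells shed CD62L, the surface protein used in this sort.

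A level is given below as the log2 of the processed signal minus the log2 of the 75th percentile of the same array, so that 0 is the 75th percentile. Levels of different probes are not compared, since probes differ in brightness. Repeated spots of other probes gave 95% half-widths for a log2 difference of 0.18 at levels of 0 or more, 0.29 at levels from -3 to 0 and 0.61 below -3, and all 3 values cover spot noise within an array only. Genes at least 2-fold apart are counted by size.

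Entpd1 was high in both CD62Llow subsets and low in both CD62Lhigh subsets. Its brighter probe stood at 0.63 in P4, 1.33 in P3, -2.90 in P2 and -4.35 in P1, all well above background. In descending order (P3, P4, P2, P1) every step was larger than spot noise, and the gap of 3.53 between P4 and P2 was the largest step. P4 was higher than P1 by 4.98 on the log2 scale (31.5-fold), which placed Entpd1 at rank 15 of 12070 genes measured on both arrays. The second Entpd1 probe, annotated to another transcript, stood at -1.15 in P4 and -0.48 in P3 but was not well above background in P2 or P1. It gave P4 as at least 11.5-fold higher than P1 and at least 10.8-fold higher than P2, where the bound sets P4 against the lowest signal well above background on the other array. Between P4 and P3 the probes differed by -0.70 and -0.67, so P4 was lower by less than 2-fold on both. After normexp background correction, the P4 minus P1 difference of Entpd1 was 3.38, P4 minus P2 was 2.74 and P2 minus P1 was 0.64, below 2-fold.

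Each value is an average over sorted cells, in which fewer expressing cells and less RNA per cell cannot be told apart. Antigen-presenting cells and regulatory T cells also carry CD39, and markers of such cells differed between the subsets. Class II and type 2 dendritic cell markers had a summed level of 7.69 in P4, 220 in P3, 7.06 in P2 and 2.08 in P1, with 6, 9, 6 and 4 of 9 markers well above background. Sirpa, Cd209a and Clec10a were not well above background in P4, P2 or P1, whereas the other 6 markers were in P4 and P2. Among those 6, H2-Ab1 stood at 1.33 in P4, 6.44 in P3, 1.09 in P2 and -0.60 in P1. Regulatory T cell markers summed to 17.8 in P4, 21.5 in P3, 10.3 in P2 and 12.4 in P1, with 7 of 7 above background in P4, P3 and P2 and 6 of 7 in P1. Foxp3, the defining factor of that lineage, stood at -2.50 in P4, -1.57 in P3, -3.81 in P2 and -3.50 in P1. Tnfrsf18, the largest term of that sum, stood at 3.19 in P4, 3.66 in P3, 3.03 in P2 and 3.24 in P1. Il2ra, Ctla4, Lrrc32 and Ikzf2 of the same list were higher in both CD62Llow subsets than in both CD62Lhigh subsets, as Entpd1 was. Gpr83 of that list was not, at 1.09 in P4, -1.50 in P3, -2.66 in P2 and 0.86 in P1. Activated T cells also express Il2ra and Ctla4. Il2ra stood at 0.02 in P4, 0.03 in P3, -3.02 in P2 and at background in P1, and Ctla4 at 0.76 in P4, 1.69 in P3, -1.02 in P2 and -1.44 in P1. Lrrc32 stood at -1.04 in P4, 0.05 in P3, -3.43 in P2 and -4.02 in P1. The part of these cells in the Entpd1 differences was not tested.

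Nt5e, the next enzyme of the chain, varied little. Its level was 1.30 in P4, 1.81 in P3, 2.05 in P2 and 1.66 in P1, a range of less than 2-fold over the 4 arrays. P4 held the lowest value, with differences of -0.37 from P1, -0.75 from P2 and -0.51 from P3, each beyond spot noise. P3 and P1 differed by 0.15 (95% spot noise interval -0.04 to 0.33), which spot noise covers. The gene for the AMP-producing enzyme and the gene for the adenosine-producing enzyme thus had different orders over the subsets. P4 was 31.5-fold higher than P1 for Entpd1 and 1.29-fold lower for Nt5e. After normexp correction these log2 differences were 3.38 for Entpd1 and -0.32 for Nt5e.

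Cd38 was graded over all 4 subsets. Its probe stood at 0.26 in P4, 1.51 in P3, -0.91 in P2 and -3.37 in P1, and each neighbouring step was at least 2-fold. P4 was 12.4-fold higher than P1 and 2.25-fold higher than P2, and 2.37-fold lower than P3. CD44 and CD62L both went with the level of Cd38: P2 was 5.50-fold higher than P1 where CD62L was high in both. After normexp correction the P4 minus P1 difference was 2.52 against 3.63 without it, and P2 minus P1 was 1.51 against 2.46. B cells and dendritic cells carry CD38 as well. B cell markers summed to 4.93 in P4, 11.03 in P3, 5.19 in P2 and 5.69 in P1, and Pax5, a defining factor of B cells, was not well above background on any array. Their part in the P3 value of Cd38 was not tested.

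Ada was lowest in P3, the reverse of Entpd1, Cd38 and P2rx7. The brighter probe stood at 0.97 in P4, 0.31 in P3, 1.52 in P2 and 1.54 in P1. The second probe gave -1.43 in P4, -2.33 in P3, -0.90 in P2 and -0.84 in P1, which is the same order. P2 and P1 were 0.03 apart on one probe and 0.06 on the other, within spot noise. P3 was lower than P1 by 2.35-fold and 2.82-fold on the 2 probes and lower than P2 by 2.30-fold and 2.70-fold. P4 lay between, at -0.57 and -0.59 against P1 and at 0.66 and 0.91 against P3. On the brighter probe P4 lay at 46.4% of the log2 distance between P1 and P3.

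**Figure D1:**
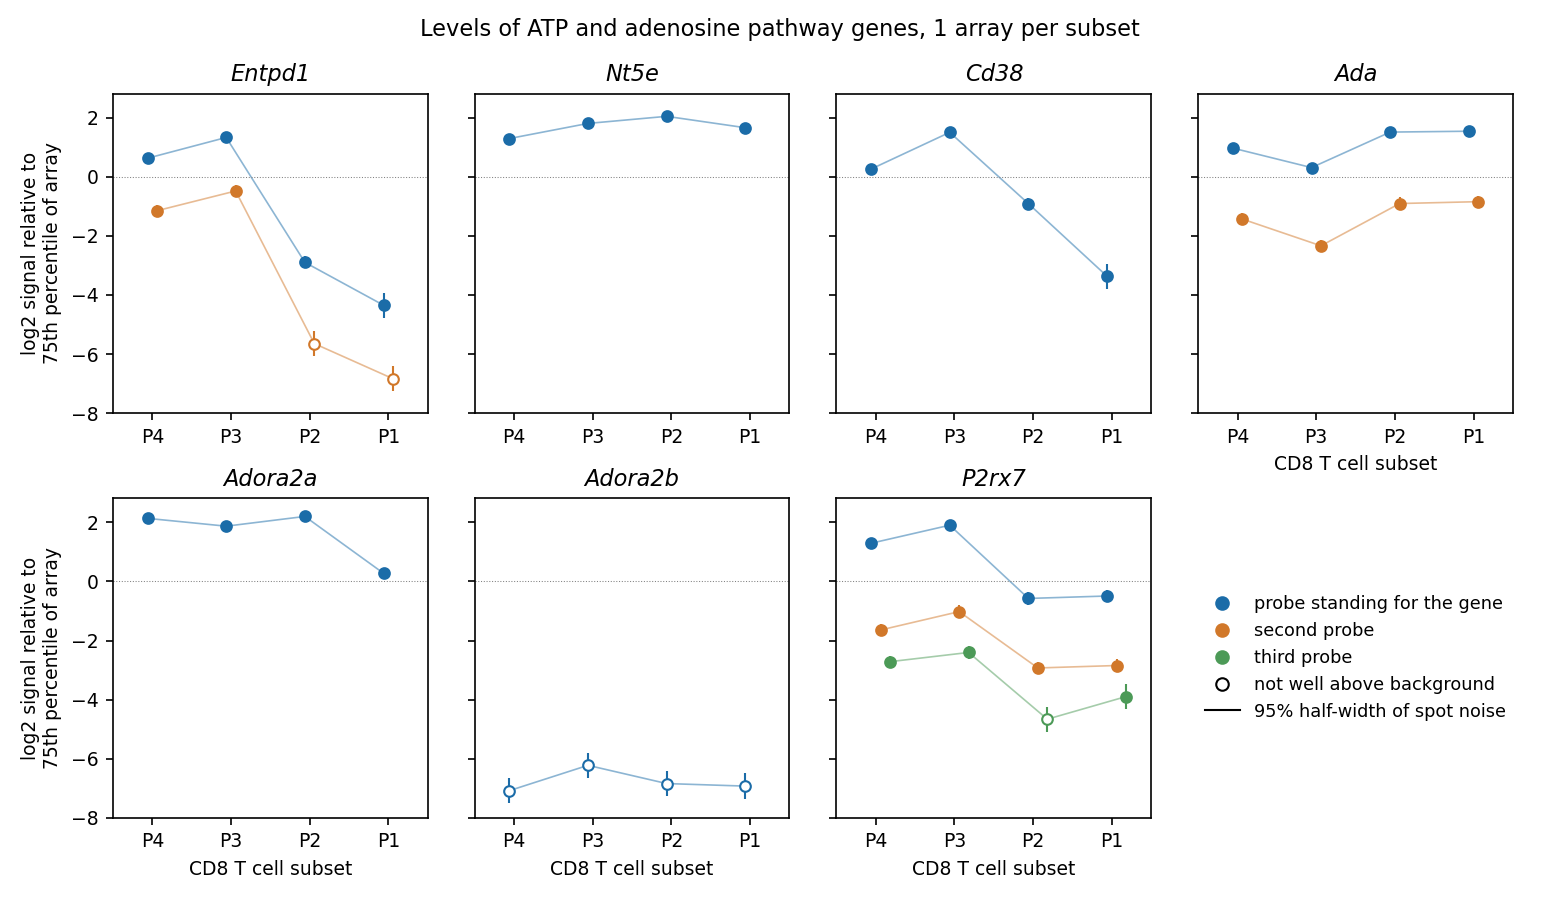
Levels of the 7 genes in P4, P3, P2 and P1, as log2 signal relative to the 75th percentile of the array, with 1 panel per gene and 1 colour per probe. Filled points are well above background, open points are not, and bars are the 95% half-width of spot noise; Entpd1 spans -4.35 to 1.33 on its brighter probe, whereas Nt5e stays between 1.30 and 2.05.

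Adora2a, the main adenosine receptor gene of T cells, set P1 apart from the other 3 subsets. Its level was 2.14 in P4, 1.87 in P3, 2.20 in P2 and 0.28 in P1. P4 was 3.63-fold higher than P1, P3 3.02-fold and P2 3.80-fold. P4 and P2 differed by -0.07 (95% spot noise interval -0.25 to 0.12), and P4 exceeded P3 by 0.26, which is 1.20-fold. Adora2b, the low-affinity receptor gene, gave -7.08 in P4, -6.23 in P3, -6.84 in P2 and -6.93 in P1, all at background, so no fold is given and Adora2b transcripts were not detectable with this probe.

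P2rx7 was higher where CD62L was low. Its brightest probe stood at 1.29 in P4, 1.90 in P3, -0.58 in P2 and -0.49 in P1, so that both CD62Llow subsets lay above both CD62Lhigh subsets. P4 was 3.45-fold higher than P1 and 3.65-fold higher than P2, and P3 was 5.27-fold and 5.58-fold higher than the same subsets. P2 and P1 differed by -0.08 (95% spot noise interval -0.38 to 0.21). The second probe stood at -1.64 in P4, -1.02 in P3, -2.93 in P2 and -2.85 in P1, and the third at -2.72 in P4, -2.40 in P3, -4.66 in P2, where it was not well above background, and -3.90 in P1. All 3 probes placed P4 above P1 by at least 2-fold, with differences of 1.79, 1.20 and 1.18. The probes are annotated to different P2rx7 transcripts, and the brightest one gave the largest difference. P4 was below P3 by 0.61, 0.62 and 0.31 on the log2 scale.

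The spots themselves were checked for bright areas on the slide. A spot was called raised where its level exceeded by 2-fold or more the levels of that spot on each of the other arrays. None of the 11 member spots had more than 1 raised neighbour on the P4 or P2 array. On the P1 array the brightest P2rx7 probe had 3 raised neighbours of 19 and the second Entpd1 probe had 2 of 19, whereas 2.21% of all spots had 3 or more and 4.61% had 2 or more. The other P2rx7 probes had 0 there and gave the same order of P4 and P1. On the P3 array 2 P2rx7 probes and the Adora2b probe had 2 or 3 raised neighbours, as had 19.4% of all spots with 2 or more.

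Entpd1, Cd38 and P2rx7 were all higher in both CD62Llow subsets than in both CD62Lhigh subsets, so their start regions are shown. Each covers 250 bases before and 50 bases after an annotated start, from RefSeq on GRCm38.p6, on the strand of the gene. Entpd1 and P2rx7 have 2 starts in this table, and the arrays do not tell which start was used. Entpd1 start 1 is chr19:40612116-40612415 (+), start 2 is chr19:40659520-40659819 (+), Cd38 is chr5:43868559-43868858 (+), and the P2rx7 starts are chr5:122643677-122643976 (+) and chr5:122650133-122650432 (+). Capitals mark matches to any of 5 short motifs on either strand: AP-1 TGANTCA, RUNX TGTGGT, NFAT TGGAAA, T-box AGGTGT and hypoxia response ACGTG.
Entpd1 start 1: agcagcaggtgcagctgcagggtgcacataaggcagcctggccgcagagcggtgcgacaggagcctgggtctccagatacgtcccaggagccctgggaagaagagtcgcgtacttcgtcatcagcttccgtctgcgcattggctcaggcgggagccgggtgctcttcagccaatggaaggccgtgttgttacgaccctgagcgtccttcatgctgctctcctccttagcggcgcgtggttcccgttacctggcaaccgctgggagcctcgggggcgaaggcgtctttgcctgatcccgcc
Entpd1 start 2: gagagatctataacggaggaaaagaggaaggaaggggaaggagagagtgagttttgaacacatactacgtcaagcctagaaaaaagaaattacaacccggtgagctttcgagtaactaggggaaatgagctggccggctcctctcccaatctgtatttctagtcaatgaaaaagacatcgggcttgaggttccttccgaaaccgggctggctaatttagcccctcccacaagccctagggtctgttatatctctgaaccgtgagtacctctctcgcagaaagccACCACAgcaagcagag
Cd38: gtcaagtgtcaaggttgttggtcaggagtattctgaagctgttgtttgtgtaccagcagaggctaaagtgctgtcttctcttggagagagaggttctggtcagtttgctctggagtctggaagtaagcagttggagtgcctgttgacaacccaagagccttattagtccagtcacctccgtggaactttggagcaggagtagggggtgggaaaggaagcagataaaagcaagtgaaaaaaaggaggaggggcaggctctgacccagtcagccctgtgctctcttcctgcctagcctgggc
P2rx7 start 1: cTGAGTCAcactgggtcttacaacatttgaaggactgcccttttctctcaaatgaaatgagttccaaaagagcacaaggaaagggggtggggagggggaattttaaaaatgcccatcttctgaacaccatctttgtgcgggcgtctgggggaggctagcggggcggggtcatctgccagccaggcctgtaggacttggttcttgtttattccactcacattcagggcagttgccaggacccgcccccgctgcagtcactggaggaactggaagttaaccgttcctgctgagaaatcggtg
P2rx7 start 2: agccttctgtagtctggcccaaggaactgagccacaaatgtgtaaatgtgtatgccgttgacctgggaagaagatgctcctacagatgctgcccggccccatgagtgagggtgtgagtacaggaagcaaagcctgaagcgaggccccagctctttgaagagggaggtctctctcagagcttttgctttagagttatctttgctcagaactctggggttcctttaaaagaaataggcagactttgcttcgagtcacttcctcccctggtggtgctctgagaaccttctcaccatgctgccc

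The 5 regions held 2 matches, a RUNX match on the other strand of Entpd1 start 2 and an AP-1 match in P2rx7 start 1. Of 32851 start regions of that length in the table, 16.8% held the RUNX motif and 7.81% the AP-1 motif. NFAT, T-box and hypoxia response motifs, held by 21.4%, 13.7% and 19.6% of all regions, had no match in these 5 windows. The Entpd1 starts differed in base composition, with 23 CpG dinucleotides and 64.0% G and C at start 1, against 10 and 48.7% at start 2. Cd38 held 1 CpG and the P2rx7 starts held 8 and 4, against a median of 7 over all regions. Start regions of Nt5e, Ada and Adora2b were also searched, and the single match among them was a T-box match in Adora2b. No start region was available for Adora2a, which was not searched.

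P4 was set against P1 to compare CD44low cells that differ in CD62L. Of 6 members compared, P4 exceeded P1 by 2-fold or more in 4 (Entpd1, Cd38, Adora2a and P2rx7), against 5.46% of 13160 genes, and 0 were lower, against 1.75%. In either direction 7.21% of genes were that far apart. Cd38 had rank 44, Adora2a rank 186 and P2rx7 rank 198 of 12070 genes measured on both arrays. The median difference of the members was 1.82, and that of all genes was -0.06. Nt5e and Ada were the members within 2-fold.

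The comparison of P4 with P2 joins cells that differ in both markers. Entpd1, Cd38 and P2rx7 were at least 2-fold higher in P4, 3 of 6 against 4.85% of 13125 genes, and 0 were lower, against 3.43% (8.27% in either direction). Adora2a was not among them. Against P3, which shares the low CD62L, 0 of 6 members were at least 2-fold higher in P4 (4.15% of 13990 genes) and 1 was lower, Cd38 at -1.24 (8.92% of genes), with 13.1% in either direction. The Cd38 call rests on 1 probe. Entpd1, P2rx7 and Nt5e were also lower in P4 than in P3, by 0.70, 0.61 and 0.51 on the log2 scale, and Ada and Adora2a were higher.

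Among the remaining pairs, P3 exceeded P1 by at least 2-fold in 4 of 6 members, the same 4 genes as in P4 against P1, beside 12.4% of 14089 genes, and 1 member, Ada, was lower (7.11%, and 19.5% in either direction). Both comparisons share the P1 array. P3 exceeded P1 by 51.3-fold in Entpd1 and by 29.3-fold in Cd38, log2 differences of 5.68 and 4.87 that were 4.02 and 3.73 after normexp correction. P3 exceeded P2 in 3 of 6, Entpd1, Cd38 and P2rx7 (10.5% of 14012 genes), and Ada was lower (5.69%, and 16.2% in either direction). P2 exceeded P1 in 3 of 6, Entpd1 at 1.45, Cd38 at 2.46 and Adora2a at 1.93 (4.76% of 12954 genes), and 0 members were lower (2.53%, and 7.29% in either direction). In dendritic cell type 1 markers the summed level was 18.2 in P4, 42.6 in P3, 4.68 in P2 and 13.1 in P1. Of these 8 markers 4, 8, 5 and 3 were well above background in the same order. Itgae, which CD8 T cells also express, was the largest term in P4 and P1, at levels of 3.53 and 3.51. Xcr1, Clec9a and Batf3 were well above background in P3 alone, at -3.79, 0.55 and 0.79. Macrophage and monocyte markers summed to 25.9 in P4, 51.9 in P3, 31.9 in P2 and 32.4 in P1, with 6, 11, 7 and 4 of 12 well above background. Itgam gave the largest term on every array, with levels between 4.52 and 4.90. Mpeg1 stood at -3.58 in P4 and 4.01 in P3, and Aif1 at -3.79 in P4 and 2.37 in P3. Csf1r of the same list was lowest in P3, at -1.15, against -0.62 in P4, -0.52 in P2 and -0.65 in P1. Fcgr1 was not well above background on any array. The part of such cells in the P3 values was not tested. T cell markers summed to 906 in P4, 798 in P3, 891 in P2 and 1005 in P1, with 10 of 10 above background on each array.

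**Figure D2:**
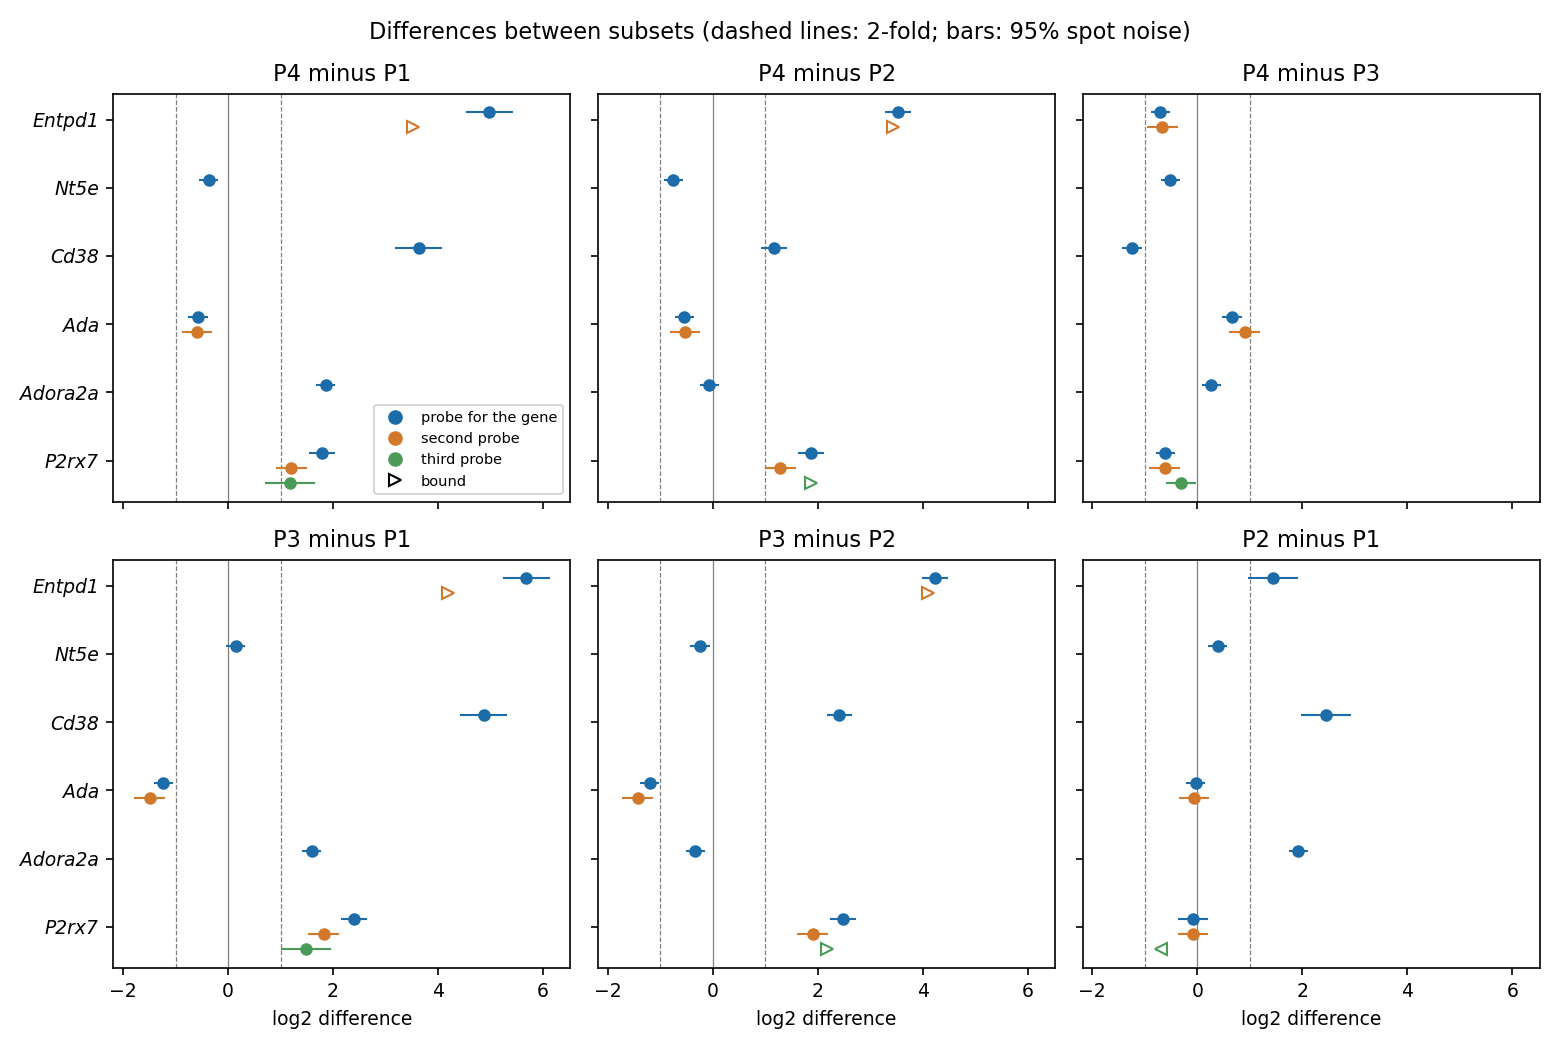
Log2 differences of the 6 genes above background in the 6 pairs of subsets, 1 colour per probe, with bars for 95% spot noise and dashed lines at 2-fold. Triangles are bounds from a probe not well above background on 1 array; Entpd1 and Cd38 lie beyond 2-fold on the positive side in 5 of 6 panels, and Cd38 lies beyond it on the negative side in P4 minus P3.

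**Figure D3:**
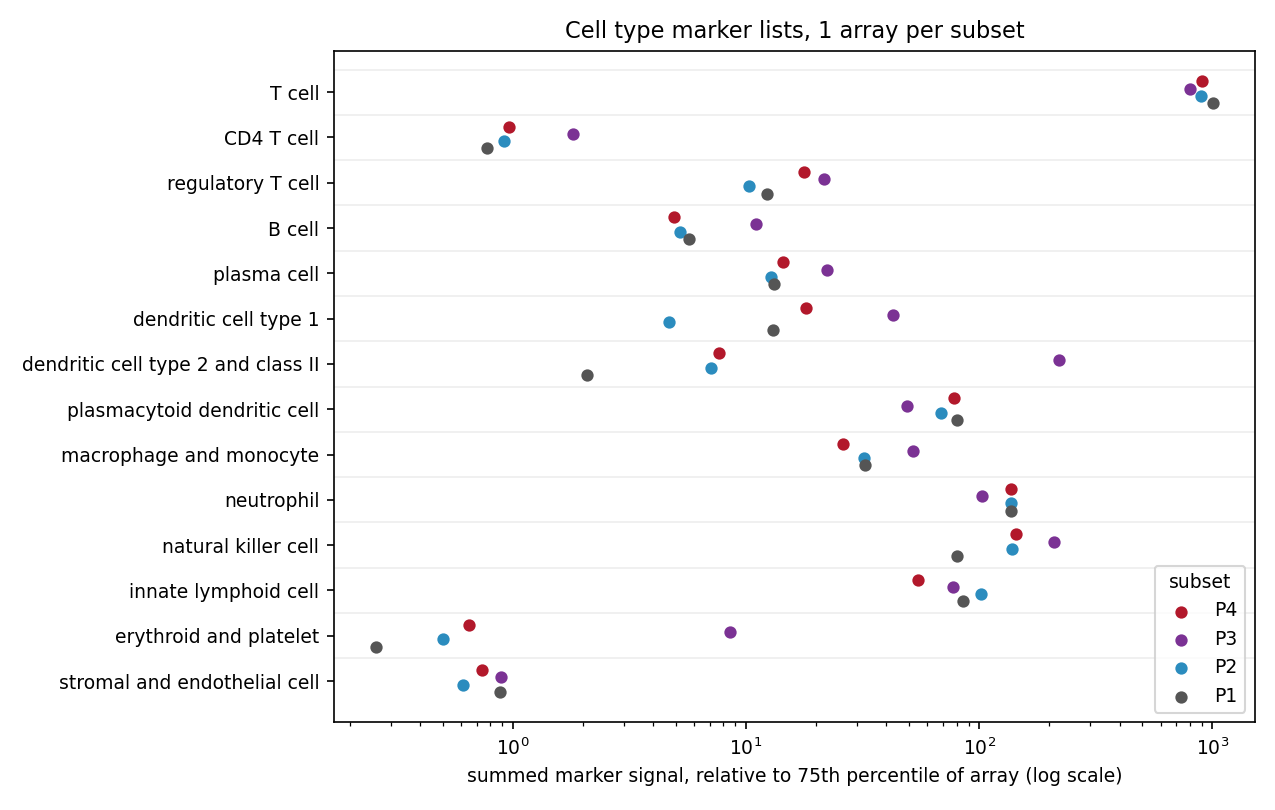
Summed signal of the markers of 14 cell types in each subset, relative to the 75th percentile of the array, on a log axis. For class II and type 2 dendritic cells P4 and P2 are close at 7.69 and 7.06, and P3 holds the highest sum (220).

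With CD44 and CD62L taken as 2 factors, the members fell into different patterns. For Entpd1 the CD62Llow minus CD62Lhigh difference was 4.98 among CD44low cells (P4 minus P1) and 4.23 among CD44high cells (P3 minus P2). For Cd38 these differences were 3.63 and 2.41, and for P2rx7 1.79 and 2.48. Ada ran the other way, at -0.57 among CD44low and -1.20 among CD44high cells. For Adora2a the difference was 1.86 among CD44low cells and -0.33 among CD44high cells, 2.19 apart on the log2 scale with a spot noise half-width of 0.26. Nt5e gave -0.37 and -0.24, and the 0.13 between them was within spot noise (half-width 0.26). None of these contrasts between differences could be tested, since each rests on 4 single arrays.

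A wider list of 60 genes of ATP, NAD and adenosine handling was read beside the members. Probes were found for 58 of them, 46 were well above background on at least 1 array and 32 on all 4. In P4 against P1, 5 of 39 compared genes were at least 2-fold higher and 0 lower, beside 5.46% and 1.75% of all genes, with a median of 0.03 against -0.06 for all genes. In P4 against P2, 6 of 40 were higher and 1 lower (median 0.12), beside 4.85% and 3.43% of all genes. In P4 against P3, 4 of 44 were higher and 7 lower (median -0.06), beside 4.15% and 8.92%. In P3 against P1, 9 of 43 were higher and 3 lower (median -0.03), beside 12.4% and 7.11%. In P3 against P2, 11 of 43 were higher and 4 lower (median 0.12), beside 10.5% and 5.69%. In P2 against P1, 0 of 37 were higher and 1 lower (median -0.10), beside 4.76% and 2.53%.

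Of 16 other adenosine and P2 receptor genes, 11 were well above background somewhere. Of these, 0 of 6 compared were at least 2-fold apart between P4 and P1 and 0 of 7 between P4 and P2. With 7.21% and 8.27% of all genes that far apart, so few genes do not set the receptors off from the rest. P2rx4, a second ATP-gated channel of T cells, stood at 1.48 in P4, 1.20 in P3, 1.502 in P2 and 1.94 in P1, and P2ry10, a lymphocyte receptor gene, at 2.27, 2.62, 2.57 and 2.67 in the same order. P2rx1 and P2rx2, further ATP-gated channels, lay between -3.78 and -2.77 on every array. P2rx5 was above background in P4, P3 and P1, at -3.99, -3.20 and -3.63.

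A further set of receptors was seen in P3 and at background elsewhere. P2ry6, a UDP receptor gene of phagocytes, stood at -0.21 in P3, P2ry14, a receptor gene for UDP-glucose, at -0.71, P2ry13 at -3.50 and the adenosine receptor gene Adora3 at -2.59. P4 was at least 24.4-fold lower than P3 for P2ry6 and at least 17.2-fold lower for P2ry14, although the P2ry14 spot had 4 raised neighbours of 22 on the P3 array. These receptors moved with the class II markers, at 7.69 in P4 against 220 in P3, and the part of antigen-presenting cells was not tested. Adora1 was above background in P2 only, at -4.44, and P2ry2 in P4 only, at -4.57.

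The other Entpd and Enpp family genes were counted together with Alpl, Bst1, Art2b and Dpp4. This group was taken by name, so it holds surface enzymes and also enzymes inside the cell such as Entpd5. Of its genes, 2 of 10 compared were at least 2-fold apart between P4 and P1 and 3 of 11 between P4 and P2. All of these were higher in P4, beside 7.21% and 8.27% of all genes apart. Against P3, 2 of 11 were apart, both lower in P4 (13.1% of all genes apart). P3 was apart from P1 in 5 of 11 (4 higher, 1 lower) and from P2 in 6 of 11 (5 higher, 1 lower), beside 19.5% and 16.2% of all genes. The lower gene in both pairs was Entpd5. In Enpp5, a relative of the ecto-pyrophosphatases, P4 exceeded P1 by 2.64-fold and P2 by 2.12-fold. Alpl, the alkaline phosphatase that can also release adenosine from AMP, stood at -2.95 in P4 and -3.45 in P3 and was not well above background in P2 or P1. P4 was at least 3.28-fold higher than P1 and at least 3.10-fold higher than P2 for Alpl. Art2b encodes an enzyme that gates P2X7 on mouse T cells by using NAD, the substrate of CD38. It stood at 1.05 in P4, 0.24 in P3, -0.21 in P2 and 0.64 in P1, and P4 exceeded P2 by 2.41-fold. P4 exceeded P1 in Art2b by 0.41 on the log2 scale. Enpp2, which makes lysophosphatidic acid, and Bst1, a relative of CD38, were lower in P4 than in P3, by 2.66 on the log2 scale for Enpp2 and by at least 7.98-fold for Bst1.

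Among carriers, Slc29a2, an equilibrative nucleoside transporter gene, stood at -1.66 in P4, -3.09 in P3, -2.36 in P2 and -2.997 in P1, and P4 exceeded P1 by 2.53-fold. Slc29a4, a transporter of adenosine and monoamines, stood at -2.30 in P4 and -0.51 in P3 and at background in P2 and P1. P4 was at least 5.15-fold higher than P1 in Slc29a4 and 3.46-fold lower than P3. Panx2 was well above background in P4 alone, at -2.43, and its spot there had 8 raised neighbours of 20, while 0.970% of all spots on that array had 3 or more, so no fold is given. Panx2 is 1 of the 5 genes counted as higher in P4 than in P1, 1 of the 6 against P2 and 1 of the 4 against P3.

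**Figure D4:**
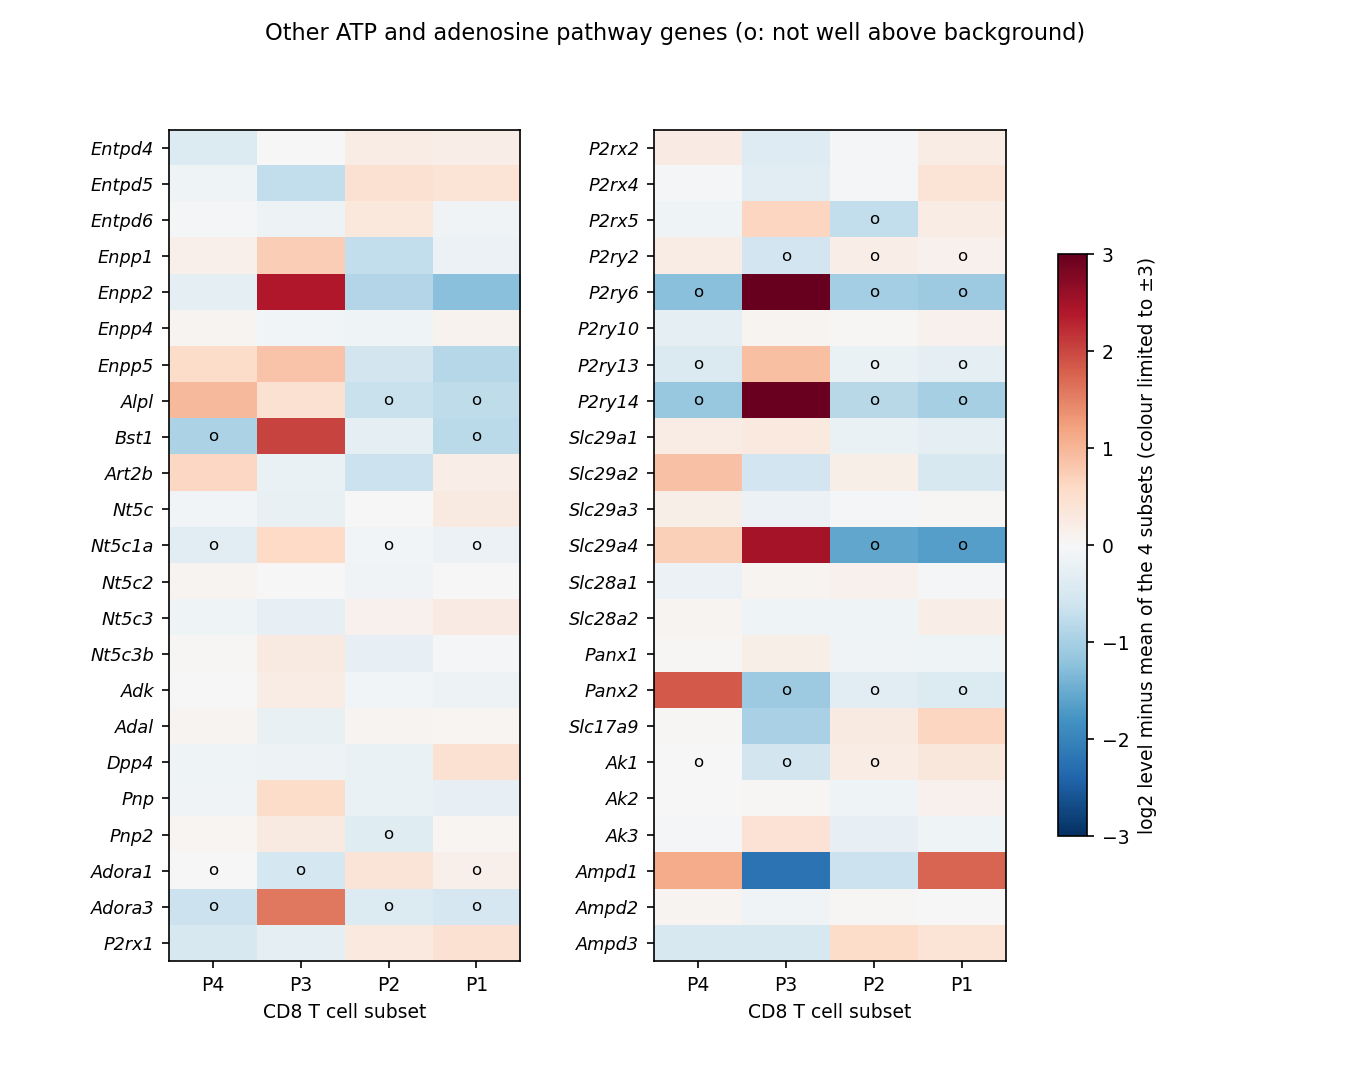
Log2 level of 46 other pathway genes in each subset minus the mean of the gene over the 4 subsets, with colour limited to 3 in either direction and values not well above background, raised to the lowest such signal, marked o. P2ry6, P2ry14 and Enpp2 are high in P3, and Ampd1 is low in P3.

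The genes whose levels ran most like those of a member were found among 10994 genes above background on all 4 arrays, by the root mean square difference of 4 centred log2 levels. With 4 points this describes a shape and nothing more. Rgs16, a regulator of G protein signalling, was nearest to Entpd1 at 0.07, with levels of 4.40 in P4, 5.09 in P3, 1.04 in P2 and -0.56 in P1, followed by Ptpn13 at 0.26. Cd200, an inhibitory ligand gene, and the histone gene H1f3 were nearest to P2rx7, at 0.07 and 0.08. Srgap3 was nearest to Cd38 at 0.11. Mfsd2a and Etv5 were nearest to Adora2a, both at 0.26. Klrd1, which encodes CD94, and Ehd3 were nearest to Nt5e at 0.03 and 0.04. Nearest to Ada, at 0.03, was Entpd5, which belongs to the same family as Entpd1 but works inside the cell, and Gstk1 followed at 0.04.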

How the data were processed

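Total RNA of 4 sorted subsets was labelled with Cy3 and hybridised to 1 Agilent single-colour array each, on 1 slide, per the labels' protocols and the file headers. The authors deposited intensity from Agilent Feature Extraction 11.0.1.1, per the file headers and the submitters' processing notes. It is background-subtracted and detrended within an array and not normalized between arrays. Deposited flags, which carry no unit, gave spots well above background and outliers. The authors also deposited a log2 value table of 26188 probes. Its columns had the same sorted values within 0.000619, a median of 8.85, and correlated with log2 processed signal at 0.999 or more, which points to quantile normalisation without centring; the sources used do not name its tool.

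Of 56605 probes, 58.3% were named through RefSeq accessions of GRCm38.p6. The array grid names mm9, so gene coordinates were not used. Outlier spots (122 to 152 per array) were left out, and 0 were saturated. The 75th percentile was 453 in P4, 799 in P3, 480 in P2 and 481 in P1, and 27827 to 30811 probes were well above background. A gene was represented by its brightest probe by mean level and compared if well above background on at least 1 array of a pair. Dimmer values took the lowest such signal of their array. The planned normexp correction used median signals (offset 50), since these files hold no mean signal, and this was chosen after seeing the data. Members, lists and the naming rule were chosen with earlier results of these data known. The rule named all members, up to 6 listed genes per pair, detected receptors and 2 like genes per member, of which 1 is not reported here. Counting was checked on simulated data. Python 3.11.15, numpy 2.4.6, pandas 2.3.3, R 4.3.3 and limma were used. No test between subsets was made.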

Additional observations from a re-analysis of the deposited data

Results flagged for a closer look

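Adora2a and P2rx7 differed in direction between the levels of the other sort marker, and neither difference was tested, since each value sets 1 array against 1 array. For Adora2a, CD62Llow minus CD62Lhigh was 1.86 on the log2 scale among CD44low cells (P4 minus P1) and -0.33 among CD44high cells (P3 minus P2). Read the other way, CD44high minus CD44low was -0.26 among CD62Llow cells (P3 minus P4) and 1.93 among CD62Lhigh cells (P2 minus P1). All 4 Adora2a values exceeded the spot noise half-width of 0.18. For P2rx7, CD44high minus CD44low was 0.61 among CD62Llow cells and -0.083 among CD62Lhigh cells, and -0.083 lies within spot noise.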

How the results depend on the processing

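Each of 36 member differences was recomputed under 8 alternatives, and all 288 values kept their sign. Some alternatives could not move these values: no filter or floor, outlier spots kept, and well above background required on both arrays. The probes standing for the 6 compared members were above background on every array and had no outlier spots. Of the 20 differences of at least 2-fold, 1 fell below it in 2 settings: Entpd1 in P2 minus P1, at 1.45, became 0.64 after normexp and 0.77 with the mean over probes, where its second probe is at the floor in both subsets. Of the 288 values, 14 moved by more than spot noise, all after normexp (8) or with the mean over probes (6). Counts of members at least 2-fold apart were the same in every pair and alternative except P2 minus P1, where 3 became 2 in those 2 settings. The share of all genes at least 2-fold apart in P4 minus P1 was 7.21%, 3.55% after normexp, and 9.38% without filter or floor. No filter moved the median of all genes in P3 minus P1 to -0.37, against -0.08. No paired analysis was possible because each subset has 1 array, and no replicate could be left out for the same reason.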

Other observations

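Of 15 enzymes with a probe that handle adenine nucleotides inside the cell, 0 of 14 compared were at least 2-fold apart between P4 and P1, beside 7.21% of all genes, so that this count is near the background. In other pairs those apart were Ampd1 and Ampd3, which both deaminate AMP. Ampd3, a name added after its values were seen, was 2.05-fold lower in P4 than in P2 and 2.07-fold lower in P3 than in P2. Ampd1 stood at -0.23 in P4, -3.55 in P3, -1.98 in P2 and 0.42 in P1. P4 was 9.97-fold higher than P3 and 3.36-fold higher than P2 in Ampd1, measured by 1 probe, and P4 minus P1 was -0.65. Ampd1 and Ada, which both remove an amino group from an adenine compound, were each lowest in P3. Adk, which turns adenosine back into AMP, stood at -0.17 in P4, 0.04 in P3, -0.26 in P2 and -0.32 in P1.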
